A study of Mus musculus with 6 samples.

Results

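In liver, 10 genes of iron handling were followed: the hepcidin genes Hamp and Hamp2, the iron exporter ferroportin (Slc40a1), the iron sensors Hfe and Tfr2, the uptake genes Tfrc, Trf, Scara5 and Slc39a14, and the ferritin heavy chain gene Fth1. They were measured by all probe sets that the annotation of the Affymetrix Mouse Genome 430 2.0 array assigns to these 10 genes, 25 of the 45101 probe sets on the array. The livers came from male GHRH-KO mice (n = 3, replicates 4 to 6) and from male wild-type littermates, here called Control (n = 3, replicates 1 to 3). Every GHRH-KO animal carried the same targeted disruption of Ghrh, the gene of growth hormone-releasing hormone, in all of its cells, which leaves the animals with isolated growth hormone deficiency. Mice of both groups came from a single closed colony of mixed C57BL6 and 129SV background. They were 10 months old and had been fasted for 6 to 8 h when the livers were taken. Total RNA of each animal was hybridized to an array of its own. The comparison asked which iron handling transcripts differed in the livers of mice with isolated growth hormone deficiency.

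Hepcidin is a peptide hormone that hepatocytes secrete when iron stores or inflammatory signals are high. It binds ferroportin, the only known cellular iron exporter, and causes its degradation, so that less iron leaves enterocytes and macrophages. Transcription of hepcidin is driven by bone morphogenetic protein (BMP) signalling through SMAD factors, with HFE, transferrin receptor 2 and hemojuvelin as partners, and by interleukin 6 through STAT3. Mice carry 2 hepcidin genes: Hamp encodes hepcidin 1, the iron-regulatory hormone, and Hamp2 encodes hepcidin 2, whose role in iron balance is less clear.

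The 2 hepcidin genes lie next to each other on chromosome 7. Their promoters are shown because the tested probe sets of the 2 genes gave unequal differences, although the sequences are much alike. A link between promoter sequence and these differences was not tested. The 250 bases before each annotated start were taken from RefSeq (GRCm38.p6, minus strand), Hamp2 at chr7:30924182-30924431 and Hamp at chr7:30944030-30944279, and are written 5′ to 3′. Capitals mark matches to GGCGCC, the BMP response element of hepcidin promoters, and to TTCNNNGAA, the core of a STAT site.
Hamp2: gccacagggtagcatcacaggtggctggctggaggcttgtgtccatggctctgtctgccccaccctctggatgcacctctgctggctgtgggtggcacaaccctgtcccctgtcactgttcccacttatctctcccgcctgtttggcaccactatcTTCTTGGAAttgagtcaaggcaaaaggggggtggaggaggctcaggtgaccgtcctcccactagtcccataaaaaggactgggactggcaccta
Hamp: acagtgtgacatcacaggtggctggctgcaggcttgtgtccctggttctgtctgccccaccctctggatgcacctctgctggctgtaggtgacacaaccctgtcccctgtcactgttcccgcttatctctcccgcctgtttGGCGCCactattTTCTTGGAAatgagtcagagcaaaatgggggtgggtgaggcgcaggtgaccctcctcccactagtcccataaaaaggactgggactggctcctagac
In a pairwise alignment, 227 of 247 aligned bases were identical (91.9%). The STAT match TTCTTGGAA was present in both promoters, 94 to 86 bases before the start of Hamp2 and 97 to 89 bases before the start of Hamp. GGCGCC was found in Hamp, 109 to 104 bases before the start. At the aligned place Hamp2 differed by the substitution G4A, counted from the first base of the hexamer with the Hamp base given first. Neither promoter held CACGTG, the E-box read by USF factors. Each of these motifs reads the same on both strands, and no matches overlapped. Of all 32851 mouse promoters of this length, 9.59% held GGCGCC, 7.02% held TTCNNNGAA and 6.02% held CACGTG. The RefSeq table held 10 promoters of 6 of the iron handling genes, and among the others GGCGCC was found in Tfrc, 89 to 84 bases before a start. A match describes letters only and is no measurement of binding.

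Values are RMA values on a log2 scale, in which a difference of 1 is a doubling, and levels of different probe sets cannot be set against each other. The fitted difference is always GHRH-KO minus Control, with p-values adjusted over 25000 probe sets by limma. A probe set was called at an adjusted p under 0.05 together with a fold change above 1.5 or below 0.67. By this rule 0.632% of the tested probe sets (158) were called higher in GHRH-KO and 0.848% (212) lower. Counting each gene by its probe set with the highest mean over the 6 arrays, 0.790% of 12410 genes (98) were called higher and 0.967% (120) lower, and in 28.5% (3535 genes) the 3 GHRH-KO values lay wholly above or below the 3 Control values. In whole liver, fewer cells of a type and less RNA per cell cannot be told apart.

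The probe set of Ghrh read 4.40, 4.55 and 4.57 in GHRH-KO livers and 4.48, 4.41 and 4.75 in Control livers. Ghrh is a hypothalamic gene, so it gives no check of the genotype labels in this tissue. Its highest value, 4.75, is used here as the level of an undetected transcript. The array of GHRH-KO replicate 5 had a Gapdh signal that was 5.27 higher at the 3′ end than at the 5′ end, against 0.15 to 0.67 on the other 5 arrays. For Actb the gap was 2.51 on that array and 0.88 to 1.31 on the others. All 7 hepatocyte markers were measured, with a mean level per array of 12.84 to 13.06 in GHRH-KO livers and 12.82 to 13.08 in Control livers.

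Among the 10 genes the largest rise was that of Hamp2 and the largest fall that of Scara5, while the other genes were not called. Of the 25 probe sets, 18 were among the 25000 tested, 4 fell below that filter and 3 were array controls for Tfrc. Of the 10 genes, 9 had a probe set of their own among those tested, and Trf was measured only by a probe set that it shares with Srprb. Of these 9 genes, 1 was called higher and 1 lower, against 0.790% and 0.967% of all genes tested. Since the members were chosen with earlier results of these data known, these shares are no test of the set. The remaining 7 had log2 differences of -0.43 to 0.086 and adjusted p-values of 0.233 to 0.930 (limma). The median difference was -0.035 over the 9 genes and 0.003 over all genes tested. The groups lay apart in 3 of the 9 genes, Hamp2, Scara5 and Tfrc, a share near the 28.5% of all genes.

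**Figure D1:**
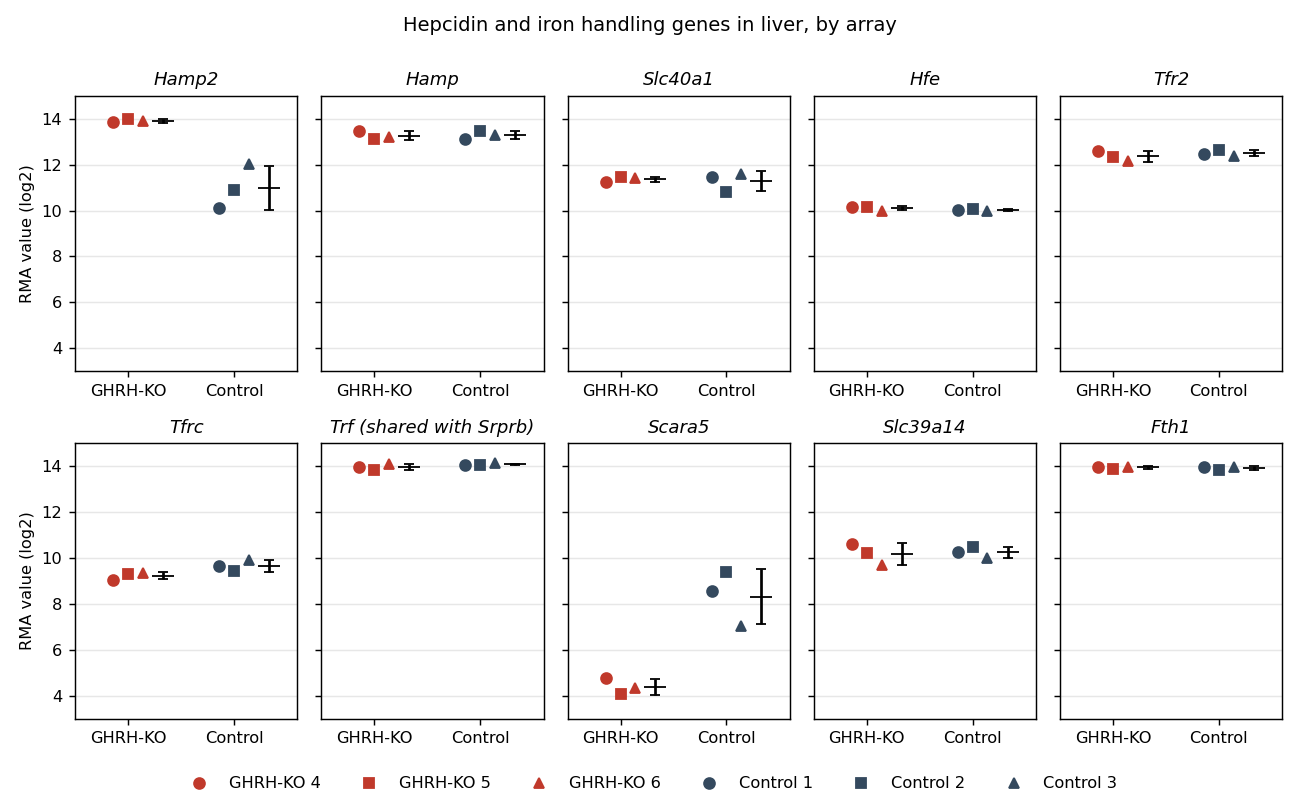
RMA values (log2) of the 10 genes on each of the 6 arrays, by the probe set with the highest mean (for Trf, the probe set shared with Srprb). Each symbol is a mouse, and bars give the mean ± SD of 3 mice. GHRH-KO livers stood above all Control livers for Hamp2 and below them for Scara5 and Tfrc.

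Hamp2 was higher in GHRH-KO livers. Its tested probe set (1436643_x_at) read 13.85, 14.00 and 13.89 in GHRH-KO livers, against 10.11, 10.87 and 12.02 in Control livers. All GHRH-KO animals exceeded all Control animals, and the Control animals spread over nearly 2 log2 units while the GHRH-KO animals were close together. The means were 13.91 ± 0.079 in GHRH-KO livers and 11.00 ± 0.96 in Control livers (SD, n = 3 each). The difference of 2.91 (SE 0.43, 95% interval 1.90 to 3.92) corresponds to 7.52-fold, with an adjusted p of 0.0270 (limma). The call was kept without Control 1 (2.47, adjusted p = 0.0371) and without Control 3 (3.42, adjusted p = 0.0065). It was lost without Control 2 (adjusted p = 0.114), GHRH-KO 4 (0.0725), GHRH-KO 5 (0.0623) or GHRH-KO 6 (0.0944), with a log2 difference of 2.85 to 2.94 each time. The suffix _x_at marks a probe set in which some probes are identical or very similar to other transcripts. The other Hamp2 probe set (1456289_at) was below the filter and at the Ghrh level throughout, at 4.46, 4.43 and 4.34 in GHRH-KO livers and 4.56, 4.46 and 4.52 in Control livers. Without _x_at probe sets Hamp2 had no tested value, and the part of other transcripts in its signal was not tested.

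Hamp, which encodes the iron-regulatory hepcidin 1, was not called. Its probe set 1419196_at read 13.47, 13.11 and 13.20 in GHRH-KO livers, against 13.11, 13.48 and 13.29 in Control livers, so the groups overlapped fully. The difference was -0.035 (SE 0.15, adjusted p = 0.925, limma), with a 95% interval of -0.39 to 0.32. The second probe set (1419197_x_at) read 13.29, 13.06 and 13.04 in GHRH-KO livers and 12.88, 13.31 and 13.05 in Control livers, a difference of 0.049 (adjusted p = 0.888, 95% interval -0.30 to 0.40). The upper bounds of both intervals lay below the lower bound of 1.90 for Hamp2. However, Control livers already read 13.11 to 13.48 for Hamp by 1419196_at, and 10.11 to 12.02 for Hamp2. Whether these probe sets follow a rise equally well at such levels was not tested. The bounds therefore compare array signals only.

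The unequal differences of both hepcidin genes were also described within arrays, as the Hamp2 value minus the Hamp value of the same animal. This quantity was 0.38, 0.89 and 0.69 in GHRH-KO livers, against -2.997, -2.607 and -1.273 in Control livers. All GHRH-KO animals were above all Control animals, and the group means differed by 2.95. The two-sided exact permutation test gave p = 0.1, the smallest value that 3 against 3 animals allow over 20 splits. It cannot decide the question, because Hamp2 had already been seen to lie apart and Hamp to overlap on these same arrays. The nearest protein-coding neighbours, chosen after their values were seen, were not called. Mag, a myelin glycoprotein gene on the Hamp2 side, differed by -0.16 (adjusted p = 0.643), and Usf2, a transcription factor gene on the Hamp side, by -0.31 (adjusted p = 0.416). The next genes outward differed more but were not called either. Cd22, beyond Mag, differed by 0.43 (adjusted p = 0.272, limma). Lsr, beyond Usf2, differed by -0.81 (adjusted p = 0.180), with all GHRH-KO values below all Control values.

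Slc40a1, which encodes ferroportin, the target of hepcidin, was not called. The brighter probe set (1417061_at) read 11.23, 11.44 and 11.41 in GHRH-KO livers, against 11.47, 10.79 and 11.60 in Control livers. The Control values lay on both sides of the GHRH-KO values, and the difference was 0.075 (SE 0.22, adjusted p = 0.881, limma, 95% interval -0.44 to 0.59). The second probe set (1448566_at) differed by -0.22 (adjusted p = 0.678), with 8.70, 8.03 and 8.71 in GHRH-KO livers and 8.87, 8.25 and 8.997 in Control livers.

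The iron sensors of the hepatocyte surface were not called either. Hfe encodes the protein that is altered in the common form of human haemochromatosis, and it read 10.155, 10.163 and 9.995 in GHRH-KO livers, against 10.004, 10.067 and 9.984 in Control livers. Its difference was 0.086 (SE 0.11, adjusted p = 0.704, limma), and 0.097 by its dimmer probe set (adjusted p = 0.846). Tfr2 encodes transferrin receptor 2, which senses transferrin-bound iron. Its brighter probe set (1459994_x_at) read 12.60, 12.33 and 12.15 in GHRH-KO livers, against 12.46, 12.63 and 12.39 in Control livers, a difference of -0.14 (SE 0.15, adjusted p = 0.654). By the other probe set (1425381_a_at) it was -0.38 (SE 0.17, adjusted p = 0.293), with 12.21, 11.83 and 11.81 in GHRH-KO livers and 12.33, 12.54 and 12.11 in Control livers. Both probe sets gave overlapping groups.

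**Figure D2:**
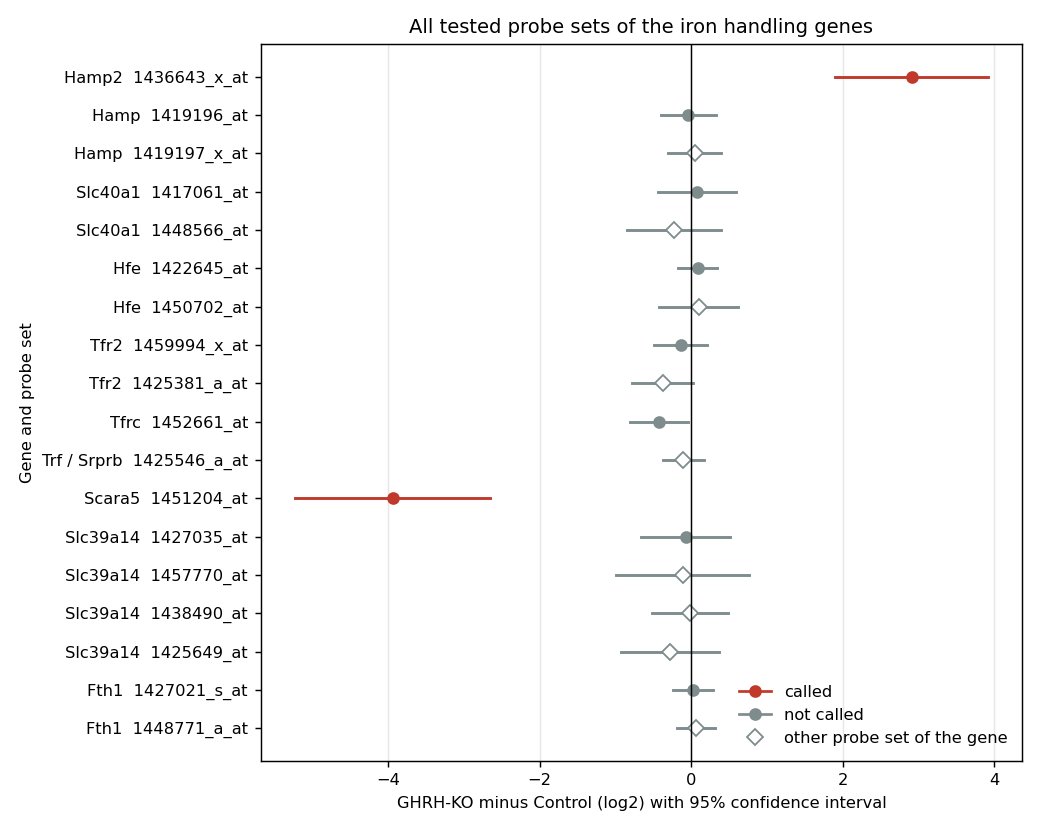
Difference between GHRH-KO and Control livers (log2, horizontal axis) with its 95% interval for the 18 tested probe sets of the 10 genes (vertical axis). Filled circles are the probe sets that stand for a gene, open diamonds the others, and red marks the called ones: Hamp2 at 2.91 and Scara5 at -3.94.

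Of the genes for iron uptake, Scara5 was lower in GHRH-KO livers and the rest were not called. Scara5 is a scavenger receptor that binds ferritin and takes up iron without transferrin. Its tested probe set (1451204_at) read 4.76, 4.05 and 4.33 in GHRH-KO livers, against 8.56, 9.38 and 7.03 in Control livers. The GHRH-KO values lay around the Ghrh level, and all Control values were far above them. The means were 4.38 ± 0.35 in GHRH-KO livers and 8.32 ± 1.19 in Control livers (SD, n = 3 each), a fitted difference of -3.94 (SE 0.55, adjusted p = 0.0223, limma). The 95% interval of the difference was -5.23 to -2.66. Set against the Ghrh level of 4.75, the Control mean of Scara5 was 11.9-fold higher. This is a lower bound by the means only, and only if the level of the Ghrh probe set holds for that of Scara5. It leaves out the spread between animals. The call was kept without Control 3 (-4.59, adjusted p = 0.00593). It was lost without Control 1 (adjusted p = 0.0712), Control 2 (0.0604), GHRH-KO 4 (0.0524), GHRH-KO 5 (0.0543) or GHRH-KO 6 (0.0852), with log2 differences of -4.13 to -3.41. The other Scara5 probe set (1431336_at) was below the filter, with 4.58, 4.41 and 4.48 in GHRH-KO livers and 4.20, 4.61 and 4.48 in Control livers.

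Tfrc encodes transferrin receptor 1, the receptor that carries transferrin-bound iron into cells. It read 9.06, 9.30 and 9.35 in GHRH-KO livers, against 9.64, 9.42 and 9.93 in Control livers. The groups did not overlap, yet the difference of -0.43 (SE 0.16, 95% interval -0.81 to -0.046) had an adjusted p of 0.233 (limma) and an unadjusted p of 0.0331. The remaining 5 probe sets of Tfrc were below the filter or array controls. Of these, 1422966_a_at differed by 0.020 and 1422967_a_at by -0.070, and the 3 control probe sets read 2.96 to 3.74 on all arrays, under the Ghrh level.

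Trf encodes transferrin, the iron carrier of plasma, and the shared probe set read 13.98, 13.85 and 14.10 in GHRH-KO livers, against 14.05, 14.05 and 14.13 in Control livers. The groups overlapped, and the difference of -0.11 (SE 0.11, adjusted p = 0.653, limma) belongs to Trf and Srprb together. Slc39a14 encodes ZIP14, which takes up iron that is not bound to transferrin. It read 10.62, 10.21 and 9.69 in GHRH-KO livers, against 10.25, 10.50 and 9.996 in Control livers, with a difference of -0.075 (SE 0.25, adjusted p = 0.899). Its 3 dimmer probe sets differed by -0.28 (1425649_at), -0.11 (1457770_at) and -0.015 (1438490_at), none of them called.

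Fth1 encodes the ferritin heavy chain, which oxidizes iron for storage. Its brighter probe set (1427021_s_at) read 13.99, 13.89 and 13.99 in GHRH-KO livers, against 13.99, 13.82 and 13.99 in Control livers, and the groups overlapped. The difference was 0.024 (SE 0.11, adjusted p = 0.930, limma), with a 95% interval of -0.24 to 0.28. The other probe set (1448771_a_at) differed by 0.066 (adjusted p = 0.774).

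The 2 called genes were also those that varied most between Control animals. The SD among Control livers was 0.96 for Hamp2 and 1.19 for Scara5, above that of 99.2% and 99.5% of all genes tested, against a median of 0.16. Control 3 had the highest Hamp2 and the lowest Scara5 of its group. Slc40a1 followed with an SD of 0.43 among Control livers, above 93.5% of genes, and 0.12 among GHRH-KO livers. Slc39a14 varied most among GHRH-KO livers (SD 0.46, above 93.1% of genes), against 0.25 among Control livers. These spreads are descriptions over 3 animals and were not tested.

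The genes whose profile over the 6 arrays was nearest to that of Hamp2 were Crym, Fam126a, Krt20, Dio1 and Mogat1. Likeness was measured as the root mean square difference of centred log2 values over the 6 arrays, and ran between 0.31 for Crym and 0.56 for Mogat1. Crym encodes mu-crystallin, which binds thyroid hormone, and read 8.27, 7.81 and 7.71 in GHRH-KO livers, against 4.57, 5.47 and 6.16 in Control livers. Dio1, the type 1 deiodinase, differed by 2.08 (adjusted p = 0.108, limma), and Crym, Fam126a and Mogat1 by 2.52 to 2.87. Krt20 was under the Ghrh level in all Control livers. By the GHRH-KO mean it was at least 2.56-fold higher in GHRH-KO livers, if that level holds for its probe set. For Scara5 the nearest were C6, Sult5a1, Carmil1, Egfr and Susd4, with distances of 0.44 for C6 to 0.74 for Susd4. C6, a complement component, read 7.70, 6.99 and 6.75 in GHRH-KO livers, against 11.07, 11.43 and 10.45 in Control livers. Since these genes were picked by their likeness over the same 6 arrays, their shared direction and order of animals follow from the choice.

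**Figure D3:**
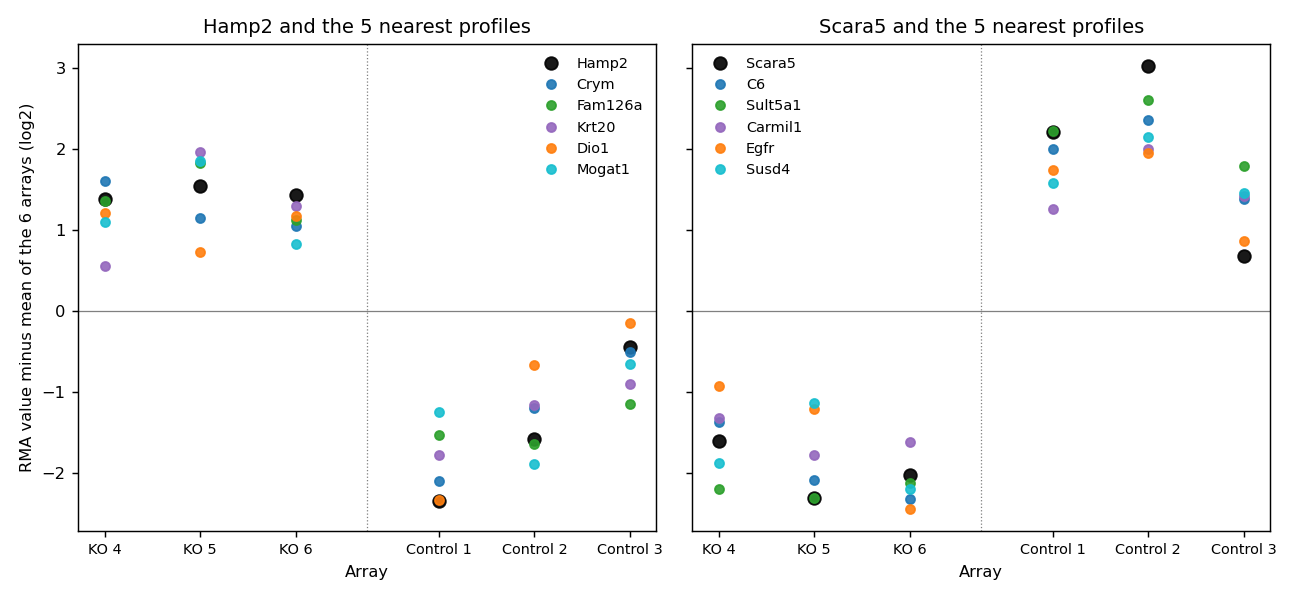
RMA values minus the mean of the 6 arrays (log2, vertical axis) on each array (horizontal axis, GHRH-KO left of Control) for Hamp2 and Scara5 and the 5 genes nearest to each. Points of a colour belong to a gene. Of the Control arrays, Control 3 lay nearest to the GHRH-KO mean for 11 of the 12 genes, all but Carmil1, as the choice of genes by likeness favours.

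Outside the 10 genes, 74 genes in 6 lists of iron biology were counted, also chosen with earlier results of these data known. Of these, 71 had a probe set of their own and 67 were tested. Of the tested genes 1 was called higher and 1 lower, against 0.790% and 0.967% of all genes tested. At an unadjusted p under 0.05 there were 4 higher and 7 lower, where all genes gave 9.17% higher (1138) and 10.1% lower (1255). The groups lay apart in 15 of the 67 genes, against 28.5% of all genes. Their median difference was 0.055, against 0.003 over all genes.

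The list of the BMP and SMAD arm mixes genes that raise hepcidin transcription with genes that restrain it. None of its 17 genes was called, with a median of -0.050. At an unadjusted p under 0.05 (limma) none was higher and 3 of the 17 were lower, against 9.17% and 10.1% of all genes. These 3 were Atoh8, Smad4 (-0.37) and Tmprss6 (-0.35), and Tmprss6 encodes a protease that restrains hepcidin. The largest difference was that of Atoh8, a transcription factor gene that responds to BMP signalling, which read 6.62, 6.27 and 6.64 in GHRH-KO livers and 6.73, 7.56 and 7.13 in Control livers. It differed by -0.63 (adjusted p = 0.211, limma).

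The interleukin 6 and STAT3 arm had none of 11 tested genes called either, with a median of 0.24. Its largest difference was that of Saa3, an acute phase serum amyloid gene, with 11.09, 9.09 and 9.65 in GHRH-KO livers, against 8.21, 7.73 and 7.74 in Control livers. The groups did not overlap, and the difference of 2.05 (SE 0.47) had an adjusted p of 0.0909 (limma). The mean level of this list was 9.59 to 10.99 in GHRH-KO livers and 8.63 to 10.09 in Control livers, with overlap.

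Haem synthesis was the list with called genes, 1 of 8 in each direction, against 0.790% higher and 0.967% lower of all genes tested. Its median was -0.10. Alas2 encodes the erythroid form of the first enzyme of haem synthesis and read 9.86, 9.33 and 9.61 in GHRH-KO livers, against 10.71, 11.21 and 10.95 in Control livers. All GHRH-KO animals were below all Control animals, with a difference of -1.36 (SE 0.19, adjusted p = 0.0221, limma). The call was lost without GHRH-KO 6 (adjusted p = 0.0846), Control 2 (0.0790) or Control 3 (0.0822). Haemoglobin genes, read by 4 tested probe sets that each belong to several globin genes, differed by -0.077 to 0.069, and of the erythroid markers only Alas2 and Klf1 had a tested probe set of their own. Alas1, the form of the same enzyme found in all tissues, is named here after its values were seen. It read 11.88, 12.13 and 11.80 in GHRH-KO livers, against 11.15, 11.06 and 10.44 in Control livers, a difference of 1.06 (SE 0.21) that was not called (adjusted p = 0.0643, limma). Ppox of the same list, also named after its values were seen, went the other way without a call. It differed by -0.59 (SE 0.15, adjusted p = 0.114, limma), with all GHRH-KO values below all Control values.

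Urod, which encodes uroporphyrinogen decarboxylase, depended on the probe set. Its brighter one (1443849_x_at) read 11.27, 11.32 and 11.18 in GHRH-KO livers, against 10.53, 10.36 and 10.57 in Control livers, and was called higher (0.77, SE 0.11, adjusted p = 0.0274, limma). The other (1417206_at) read 9.57, 8.73 and 9.24 in GHRH-KO livers and 9.53, 9.42 and 9.62 in Control livers, a difference of -0.34 (adjusted p = 0.428). The call by the first was lost whichever array was left out, with an adjusted p of 0.0616 to 0.0925. Hamp2, Scara5, Alas2 and Urod are all in a list that the study drew from these same arrays, so their direction there is no independent evidence.

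The other lists held no called gene. The 6 tested genes of iron regulatory proteins and chaperones (median 0.26) were led by Fbxl5, the iron-sensing ubiquitin ligase subunit, at 0.36 (adjusted p = 0.448). The ferritin light chain gene of that list, Ftl1, had only probe sets that it shares with other genes. The first (1418364_a_at) read 13.04, 12.64 and 13.10 in GHRH-KO livers, against 13.29, 13.25 and 13.45 in Control livers, with no overlap and a difference of -0.40 (adjusted p = 0.235, limma). The others differed by -0.42 (1422302_s_at, adjusted p = 0.534), with 12.10 in GHRH-KO 5 and 13.31 to 13.43 on the other arrays, and by -0.0071 (1422301_at). The list of iron and haem transport, reduction and recycling had 17 tested genes and a median of 0.049. Its largest difference was that of Steap4, a metalloreductase gene, at 0.87 (adjusted p = 0.269), with overlapping groups. At an unadjusted p under 0.05 (limma) 1 gene was higher and 2 were lower, against 9.17% and 10.1% of all genes. The lower ones were Slc25a28 (-0.49, adjusted p = 0.0847) and Steap3 (-0.49, adjusted p = 0.103). In both, all GHRH-KO values lay below all Control values. Iron-sulfur cluster assembly (8 tested, median 0.032) was led by Hspa9, a mitochondrial chaperone gene, at 0.24 (adjusted p = 0.337, limma).

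**Figure D4:**
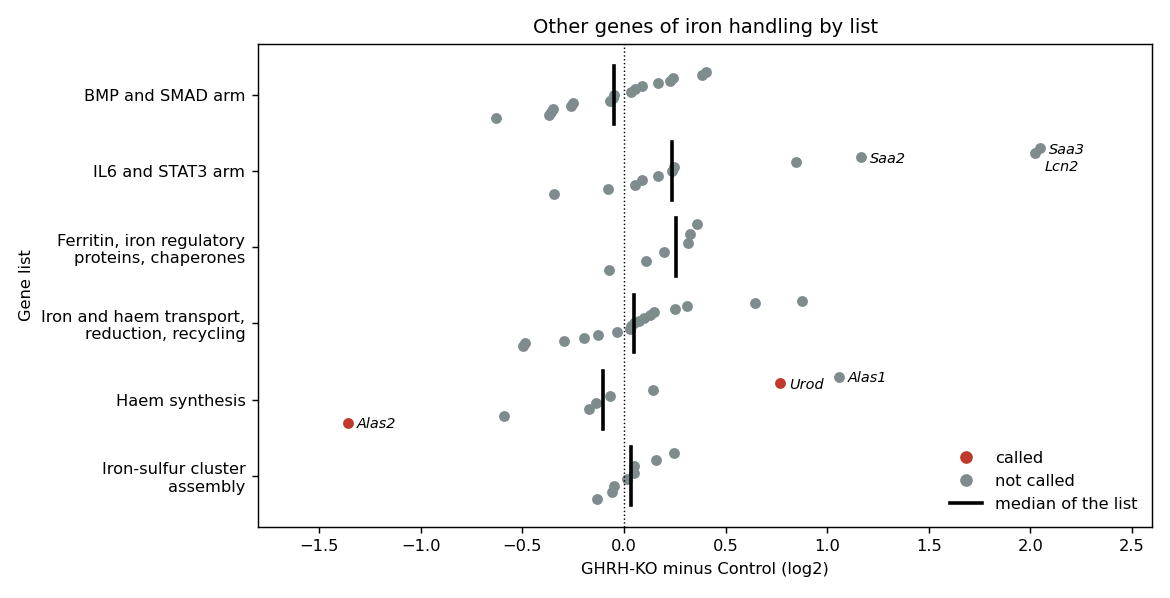
Difference between GHRH-KO and Control livers (log2, horizontal axis) for the 67 tested genes of the 6 iron lists (vertical axis), 1 point a gene, with the median of each list as a bar. Red points, Alas2 at -1.36 and Urod at 0.77, are the called genes.

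Markers of other liver cells were read beside these results. None of the 11 Kupffer cell or macrophage markers was called (median 0.31), with mean levels of 7.37 to 8.91 in GHRH-KO livers and 7.52 to 8.90 in Control livers. At an unadjusted p under 0.05 (limma) 1 of them was higher, Cd68 (1.19, adjusted p = 0.154), and 0 were lower, against 9.17% and 10.1% of all genes. Marco differed most, by -1.26 (adjusted p = 0.380, limma). None of the 9 stellate cell or fibroblast markers was called (median 0.43), with 3 higher at an unadjusted p under 0.05 (9.17% of all genes) and mean levels of 8.40 to 8.71 in GHRH-KO livers and 7.81 to 8.44 in Control livers. The medians were 0.19 for 7 endothelial markers and 0.17 for 3 lymphocyte markers. Of the latter, Ptprc differed by 0.92 with overlapping groups (adjusted p = 0.294, limma), Cd3e by 0.17 and Cd3d by 0.091. The tested erythroid markers differed in opposite directions, by -1.36 for Alas2 and 0.57 for Klf1 (adjusted p = 0.320, limma). So did the cholangiocyte markers, by -0.60 for Krt19, -0.54 for Sox9 and 0.25 for Epcam, none of them called. Krt19 read 4.76, 4.97 and 4.79 in GHRH-KO livers, against 7.04, 4.59 and 4.69 in Control livers. Its negative sign rests on Control 1 alone, since the other Control values were under the Ghrh level and below all GHRH-KO values. The neutrophil markers S100a8 and S100a9 had Control means under the Ghrh level, although S100a9 read 5.03, 4.42 and 4.77 in Control livers. By the means this leaves lower bounds of 1.26-fold and 1.79-fold, if that level holds for their probe sets, and neither was called. No adipocyte marker passed the filter. The part of these cells in the values of the iron handling genes was not tested.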

How the data were processed

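Livers of 3 GHRH-KO and 3 Control mice were profiled on Affymetrix Mouse Genome 430 2.0 arrays. The deposited values are log2 values that the authors made by RMA (background correction, quantile normalization, median polish). No intensities or detection calls were used here, and the number of arrays limits the precision. Values ran between 2.53 and 14.7, with array medians of 4.95 to 4.99.

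Probe sets were named by the platform annotation: 34958 belong to 1 gene, 932 to several and 9211 are not listed. The 25000 probe sets with the highest mean, without the 64 controls, were fitted by limma 3.58.1 (R 4.3.3; lmFit, eBayes, Benjamini-Hochberg). This filter stands in for a detection filter of the study that RMA values do not allow. In simulated data 52% to 58% of changes of 1 and 82% to 88% of changes of 2 (log2) were recovered over 25000 rows, with 6 false of 146 calls. Named were all members, called genes of each list or else the largest difference, and the 5 nearest profiles. Members and lists were chosen with earlier results of these data known.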

Additional observations from a re-analysis of the deposited data

How the results depend on the processing

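No paired analysis was possible because the labels number the Control animals 1 to 3 and the GHRH-KO animals 4 to 6, with no shared number. Leaving out 1 array in turn, member genes called higher numbered 0 to 1 and lower 0 to 1 (the same for member probe sets), and iron list genes called higher numbered 0 to 0 and lower 0 to 1. Log2 differences then ran between -0.14 and 0.058 for Hamp (-0.052 and 0.16 by 1419197_x_at), -0.17 and 0.23 for Slc40a1 (-0.45 and 0.0015 by 1448566_at), -0.13 and 0.27 for Hfe 1450702_at, -0.30 and 0.17 for Slc39a14 (-0.21 and 0.15 by 1438490_at, -0.47 and 0.12 by 1457770_at), and -0.032 and 0.057 for Fth1.

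Without Control 2 and GHRH-KO 5 together, the numbers of member genes, member probe sets and iron list genes called were 0 in both directions. Hamp2 was then 2.80 (adjusted p = 0.157, limma) and Scara5 -3.25 (0.0932), Hamp 0.13, Slc40a1 -0.21 and Slc39a14 0.031 (0.089 by 1438490_at, 0.29 by 1457770_at). Without _x_at, _s_at and _a_at probe sets, member genes and probe sets called higher numbered 0, iron list genes 0 higher and 0 lower, and Urod was -0.34. Array weights gave 3 iron list genes higher and 2 lower and Slc40a1 -0.030, and over all probe sets 440 higher and 507 lower, against 158 and 212. An intensity trend with robust eBayes gave 2 iron list genes higher, and a fold threshold of 2 gave 0. A second quantile normalization turned Slc39a14 1438490_at to 0.031. The probe set with the lowest p gave Hamp 0.049 and Slc40a1 -0.22, and the mean of probe sets Hamp 0.0069 and Slc40a1 -0.074. The cause of these shifts was not tested.

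No member that was not called became called in 216 values over all alternatives, of which 30 had the opposite sign. The call of Scara5 was kept under all 8 alternatives that left out no array, and that of Hamp2 under all 7 that gave it a value. Over all probe sets, leaving out 1 array gave 50 to 136 called higher and 83 to 166 lower. With 3 animals a group, the spread between animals limited the tests, and values at or under 4.75 cannot be ordered.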
